A study of Drosophila melanogaster with 8 samples.

Results

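The cytosolic ribosomal protein genes of Drosophila were followed through 8 RNA-seq libraries of S2 cells. The members were all genes in the deposited tables whose FlyBase symbol begins with RpL (large, 60S, subunit) or RpS (small, 40S, subunit) followed by a digit, A or P, and mitochondrial ribosomal protein genes were left out. There were 87 of them among 15438 genes, 51 RpL and 36 RpS. Of these, 78 (47 RpL and 31 RpS) had enough reads to be tested in the Beaf lines, 79 were kept in the CTCF pair, 3 (RpL41, RpS10a and RpS6) were listed at 0 in all libraries, and 6 others had values too low to test. A further 5 symbols that meet the rule (RpL19, RpL27A, RpL31, RpS10b and RpS12) had no row and were not analysed here.

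A cytosolic ribosome carries about one copy of each of these proteins, and cells make them from some of the most abundant mRNAs they hold. In flies most promoters of this family start at a polypyrimidine initiator, and loss of one gene copy often gives the slow-growing, short-bristled Minute phenotype. A few genes have paralogs, and in several of these pairs one copy is used mainly in the germline.

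S2 cells are a hemocyte-like line derived from late embryos. The mutant and the wild-type Beaf libraries (3 of each) are tied by the protocol to stable transfection, by calcium precipitation, with pUWG vectors that hold a neomycin resistance gene, and to growth of colonies selected in G418. The protocol sets mutant Beaf against wild type without stating what vector, if any, the wild-type cells carried. Beaf (BEAF-32) is an insulator protein that binds near many promoters. The other 2 libraries, 1 of each, came from S2 cells labelled as a knockdown of CTCF, another insulator protein, and as its control, and the protocol for depletion describes 400 µg of double-stranded RNA for 5 days. Genotype and cell line cannot be told apart, and no label states separate cultures for the libraries of one genotype, so p-values measure only the spread between these libraries. Each of the Beaf tables holds 1 mutant and 1 wild-type column, and libraries are numbered by the table they came from.

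Gene totals as deposited ranged from 1544063 to 2122627 in the Beaf lines, and were 9267319 in the CTCF knockdown and 14217989 in its control. BEAF-32 stood at 1228, 1613 and 1929 CPM (counts per 1000000 gene reads) in mutant libraries 1 to 3, against 25.0, 469 and 676 CPM in the wild-type libraries, and reads of the vector and of the endogenous gene were not separated. CTCF stood at 11.3 CPM in the knockdown, against 55.4 CPM in its control. Library 1 of each genotype stood apart: chi-square per degree of freedom was 33.2 and 30.4 between mutant library 1 and mutant libraries 2 and 3, against 2.19 between mutant libraries 2 and 3, and 10.0 and 14.4 between wild-type library 1 and wild-type libraries 2 and 3, against 3.26 between wild-type libraries 2 and 3. All 10 hemocyte markers were detected. Their summed levels were 10305 to 15152 CPM in the mutant lines and 2526 to 7621 CPM in the wild-type lines. Hml, Col4a1, vkg, Ppn and srp were higher in every mutant library, and levels of Pxn, NimC1, Glt and SPARC overlapped. Fer1HCH went the other way, with 292 to 528 CPM in mutant libraries, against 695 to 791 CPM in wild-type libraries.

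Together the 87 genes took overlapping parts of the gene reads in both genotypes and a larger one in the CTCF libraries. Their share was 8.07%, 5.76% and 5.59% in mutant libraries 1 to 3, against 6.20%, 6.04% and 6.31% in wild-type libraries 1 to 3 (mean 6.47% ± 1.38 against 6.19% ± 0.136, SD, n = 3 each). Mutant library 1 lay above every wild-type library and mutant libraries 2 and 3 below all of them, so the groups overlapped. The share was 13.13% in the CTCF knockdown (95% Wilson interval 13.11 to 13.15) and 13.06% in its control (13.04 to 13.08), intervals that cover counting error only. In bulk RNA a lower level in each cell and fewer cells with a high level cannot be told apart. Reads that HTSeq assigned to no feature made up 85.6% to 94.0% of a Beaf library, 6.93% of the knockdown and 8.05% of the control, and their part in the difference between the Beaf and CTCF libraries was not tested.

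Levels were compared within the family per length of transcript. Per kilobase of the canonical transcript, the mean of the wild-type libraries ran from 20.9 CPM per kb for RpS5b to 1673 CPM per kb for RpLP2, with a median of 837 over the 78 tested genes. The 70 genes with a mean of at least 200 CPM in wild type started at 392 CPM per kb, for RpL38, a cut on level that also leaves RpL39 out. By total reads RpL5, which carries the 5S rRNA into the 60S subunit, led the family with 2742, 2715 and 2791 CPM in mutant libraries 1 to 3, against 3288, 2920 and 3115 CPM in wild-type libraries 1 to 3, and 8765 CPM in the CTCF knockdown, against 8916 CPM in its control. The annotated RpL5 transcript is long for the family, and its wild-type level of 810 CPM per kb was below the median. Levels per kb rest on the annotated transcript. It has 3835 bases for RpL5, with a coding length of 897, and 1013 bases for RpL38, with a coding length of 210. Whether the cells use these transcripts was not tested.

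Behind RpL5 came genes that include RpS3, which lines the mRNA entry channel, RpS3A and RpL4, which lines the peptide exit tunnel, with means of 2128, 1866 and 1852 CPM over the 8 libraries. The stalk of the large subunit, which recruits elongation factors, is built from RpLP0, RpLP1 and RpLP2. In wild-type libraries their levels averaged 801, 1396 and 1673 CPM per kb in that order. In the CTCF control the order of levels differed in part. RpL35, a protein at the tunnel exit, was highest there at 4063 CPM per kb. The median over the 78 tested genes was 1724 CPM per kb. Much of the order in CPM was kept between the wild-type mean and the control (Spearman rho 0.82 over the tested genes, as a description). Of the 78 genes, 77 were higher in the CTCF control than in the mean of the wild-type Beaf lines, with a median ratio of 2.04, and RpL28 was the exception at 0.669. The share of all genes that were higher in this way was not counted. Rows without a symbol took 33.7%, 31.3% and 30.2% of gene reads in wild-type libraries 1 to 3, against 10.5% in the control. Their part in the ratio was not tested. These libraries differ in treatment, depth and table, and those cannot be told apart.

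**Figure D1:**
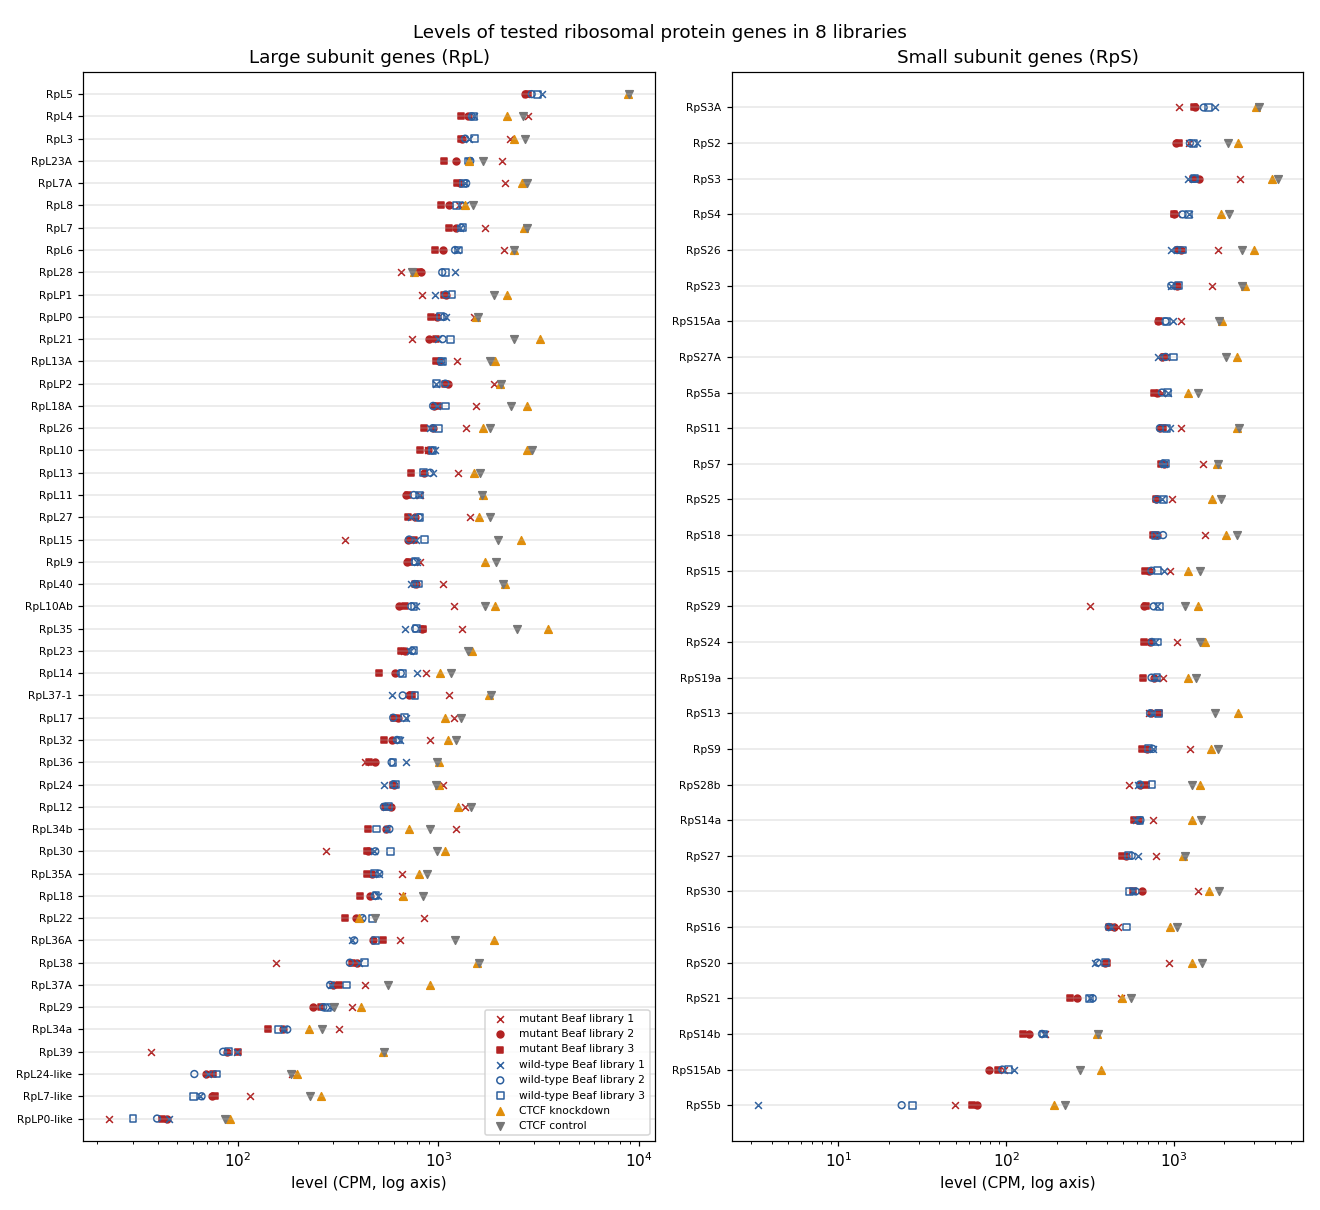
Levels in CPM, on a log axis, of tested RpL genes (left) and tested RpS genes (right), one line per gene drawn in order of level, with a marker for each of the 8 libraries. Mutant library 1 (red crosses) sits away from the other Beaf libraries for many genes, and RpS5b, at the foot of the right panel, has its 3 wild-type values below its 3 mutant values.

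Over all 6 Beaf libraries no ribosomal protein gene passed the test. With limma-trend on log2 CPM and Benjamini-Hochberg adjustment, 0 of 78 genes were called at an adjusted p below 0.05, where 0.00% of all 6564 genes tested were called. At an unadjusted p below 0.05, 1 gene was higher and 2 were lower in the mutant. EdgeR's quasi-likelihood test and limma-voom also called 0 genes in all, and DESeq2 called 220 genes, of which 0 were ribosomal protein genes. The median log2 fold change was 0.10 over the family and −0.02 over all genes, and the family's was −0.15 without mutant library 1 and −0.036 with no filter on low values. In 3 ribosomal protein genes (RpS5b, RpL35 and RpL7-like) every mutant library lay above every wild-type library, where 18.7% of all genes did so, and in 7, RpL21, RpL28, RpL30, RpL36, RpS3A and RpS29 among them, every mutant library lay below, where 18.0% did.

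The family's ratios were wider and mostly positive in the first table. The median log2 ratio of mutant over wild type was 0.58 in the first table, −0.09 in the second and −0.15 in the third. Of 78 genes, 62 were higher in the mutant of the first table, where 49.8% of all genes were, 20 in the mutant of the second and 10 in the mutant of the third. For the second and the third the share of all genes was not counted. Median log2 ratios over all genes were −0.004 in the second and −0.012 in the third. A ratio of at least 1.5-fold in either direction was reached by 46 genes in the first table, where 58.1% of all genes reached it. In the second and the third it was reached by 1 gene each, RpS5b, where 16.0% and 16.4% of all genes reached it. Without RpS5b the log2 ratios ran from −0.37 to 0.29 in the second table and from −0.44 to 0.49 in the third.

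**Figure D2:**
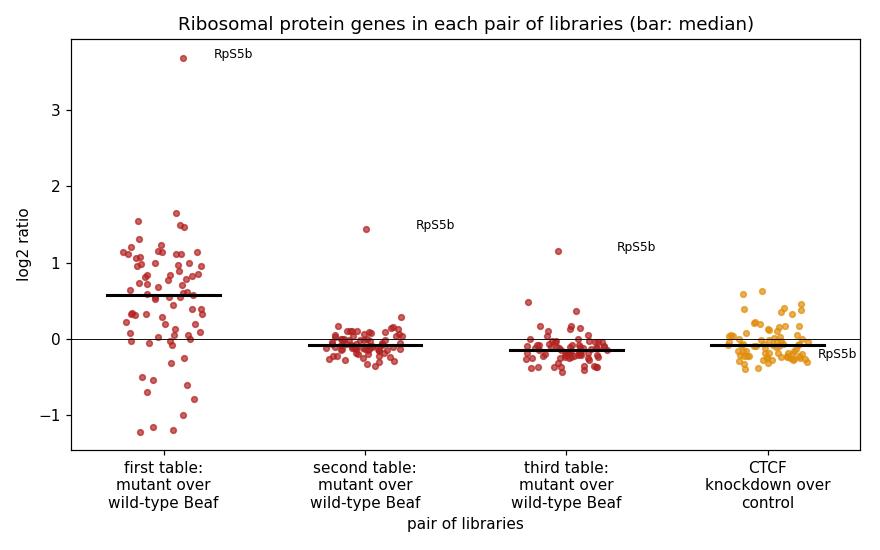
Log2 ratios within each deposited pair of libraries (vertical axis), mutant over wild-type Beaf for the 3 Beaf tables in order and CTCF knockdown over control, with a point per ribosomal protein gene and a bar at the median. The medians are 0.58, −0.09, −0.15 and −0.09, and RpS5b is the highest point in each of the 3 Beaf tables.

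Mutant library 1 did not shift the family as one block. Against the mean of mutant libraries 2 and 3 it was higher for 65 genes and lower for 13, with a median log2 difference of 0.78 and an SD over genes of 0.61, while mutant library 2 minus mutant library 3 had an SD of 0.11. Over all genes that median was 0.002 and the SDs were 0.97 and 0.32, in that order. The share of all genes higher by any amount in mutant library 1 was not counted. At least 2-fold higher were 24 genes, where 10.7% of all genes were, and at least 2-fold lower were 2, where 11.7% were. RpL39, a small protein of the exit tunnel, stood at 37.1 CPM in mutant library 1, against 88.0 and 100.4 CPM in mutant libraries 2 and 3. RpL15, a core 60S protein, stood at 343 CPM, against 704 and 753 CPM. RpL12, at the base of the stalk, went the other way with 1361 CPM in mutant library 1, against 582 and 543 CPM in mutant libraries 2 and 3. The order of levels within the family thus differed between libraries of the same line.

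With library 1 of each genotype left out, 17 ribosomal protein genes fell in the mutant by small amounts and 1, RpS5b, rose. In this comparison of libraries 2 and 3 of each genotype (a subset chosen with values known, so its p-values measure a spread narrowed by that choice), limma-trend called 17 of 78 genes lower and 1 higher after Benjamini-Hochberg adjustment over 6619 genes, where 5.42% of all genes were called lower and 9.34% higher. The 17 were 9 of 47 RpL and 8 of 31 RpS genes, and their falls ran from 12.7% to 23.8%. Of all 78, 63 had a negative and 15 a positive log2 fold change, with a median of −0.13 against −0.01 over all genes tested. In 49 genes both mutant libraries lay below both wild-type libraries, where 27.5% of all genes did so, and in 4 both lay above, where 27.4% did. The count rests on few libraries and on the tool: it was 9 without wild-type library 3, 11 without mutant library 3, and 0 with DESeq2, which called 166 genes higher and 14 lower in all and gave 6 ribosomal protein genes lower at an unadjusted p below 0.05.

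In the large subunit the most marked fall was that of RpL28. It stood at 823 and 803 CPM in libraries 2 and 3 of the mutant, against 1045 and 1084 CPM in libraries 2 and 3 of the wild type, with a log2 fold change of −0.39 (SE 0.06, limma adjusted p = 0.000212). Library 1 lay further out in the same directions, with 652 CPM in the mutant and 1205 CPM in the wild type, so no mutant library reached a wild-type one. RpL36 had the same order, with 429, 483 and 452 CPM in the mutant libraries, against 690, 585 and 594 CPM in the wild-type libraries, and a log2 fold change in libraries 2 and 3 of −0.34 (SE 0.07, limma adjusted p = 0.00170).

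RpL23A, which sits at the exit of the peptide tunnel, fell to 1228 and 1073 CPM in libraries 2 and 3 of the mutant, against 1443 and 1409 CPM in libraries 2 and 3 of the wild type (log2 fold change −0.32, limma adjusted p = 0.00378). Mutant library 1 stood at 2080 CPM, above all wild-type libraries. RpL6 followed the same pattern, with 1052 and 967 CPM in libraries 2 and 3 of the mutant, against 1212 and 1260 CPM in libraries 2 and 3 of the wild type (log2 fold change −0.30, limma adjusted p = 0.00371), and 2135 CPM in mutant library 1, against 1245 CPM in wild-type library 1. RpL22 fell by 0.29 on the log2 scale, RpL30 by 0.26 and RpL14 by 0.24. RpL8, a protein next to the peptidyl transferase centre, fell by 0.23, and so did RpL21. Among the stalk proteins none was called: the log2 fold changes of RpLP0, RpLP1 and RpLP2 were −0.14, −0.07 and 0.10.

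In the small subunit RpS21 led with 264 and 240 CPM in libraries 2 and 3 of the mutant, against 328 and 313 CPM in libraries 2 and 3 of the wild type (log2 fold change −0.35, SE 0.08, limma adjusted p = 0.00436). Mutant library 1, at 485 CPM, lay above all wild-type libraries. RpS2, which helps to shape the mRNA path and the decoding site, stood at 1022 and 1078 CPM in libraries 2 and 3 of the mutant, against 1244 and 1304 CPM in libraries 2 and 3 of the wild type (log2 fold change −0.28, limma adjusted p = 0.00485). Other small subunit genes that fell were RpS14b (log2 fold change −0.33), RpS4 (−0.24), RpS3A (−0.23) and RpS29 (−0.22). RpS29 had the lowest value over all 6 libraries, with 314, 666 and 683 CPM in the mutant libraries, against 796, 757 and 817 CPM in the wild-type libraries, a log2 fold change of −0.54 (SE 0.25, limma adjusted p = 0.278).

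Only 5 of the 17 (RpL6, RpL28, RpL36, RpS2 and RpS21) were called lower in each of the 4 fits that leave out one of these libraries. Over all 6 libraries 12 of the 17 had a negative log2 fold change, and within the first table alone 8 were lower and 9 higher in the mutant. Without mutant library 1 but with wild-type library 1, limma-trend called 7 ribosomal protein genes lower and 0 higher, namely RpL6, RpL23A, RpL28, RpL36, RpS2, RpS14b and RpS21, where 2.75% of all genes were called lower and 4.25% higher. RpL14 lost its call when libraries were scaled by their size alone. The summed hemocyte markers and the share of reads not aligned (7.61% to 10.4% in mutant, 0.790% to 3.55% in wild-type libraries) also separated the genotypes, and their part in the falls was not tested.

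**Figure D3:**
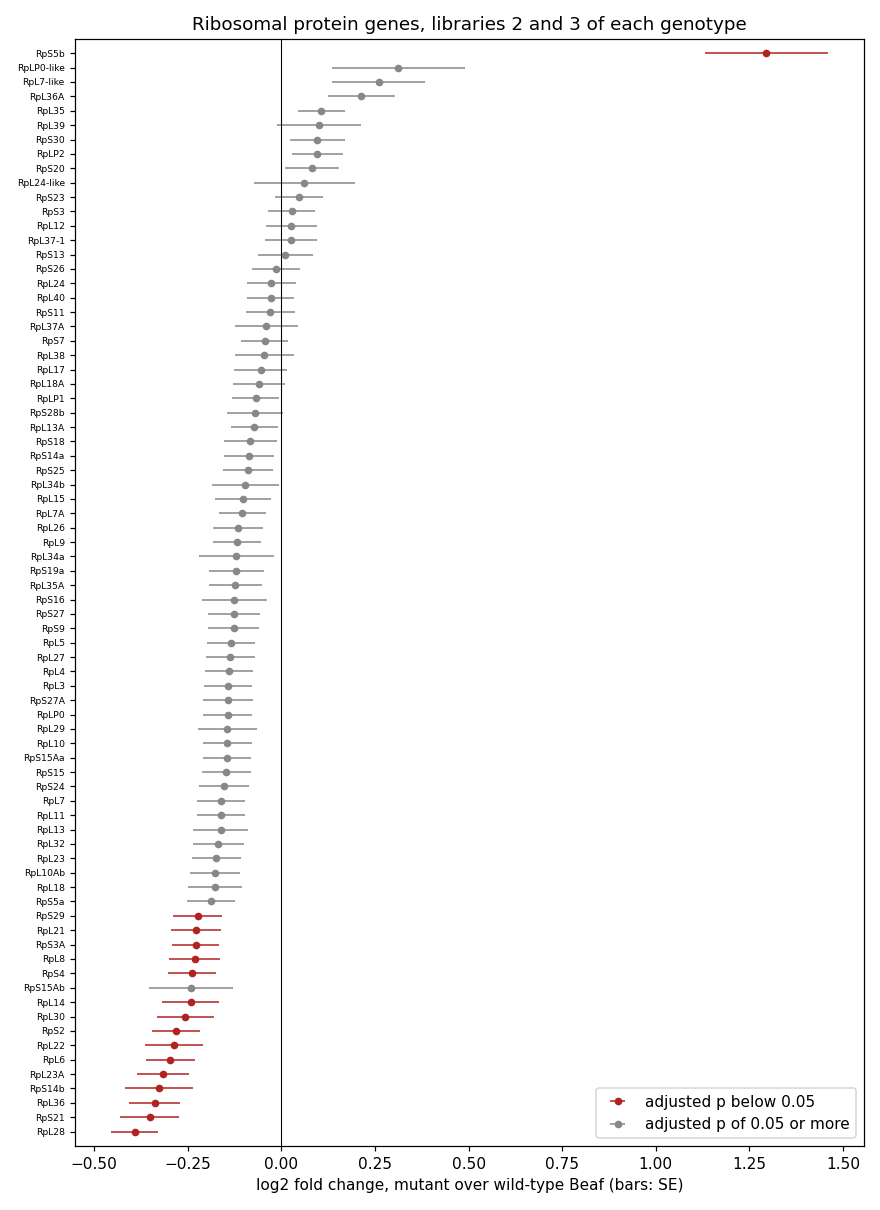
Log2 fold change, mutant over wild-type Beaf in libraries 2 and 3 of each genotype (horizontal axis), with standard errors, for tested ribosomal protein genes in order. Red marks genes called lower, which lie between −0.39 and −0.22, and RpS5b at 1.295, the 1 gene called higher.

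The genes that fell lay on 5 of the 6 chromosome arms that hold members. On 3L 6 of 13 tested genes were called lower and all 13 had negative log2 fold changes. On 2L it was 4 of 17, on 3R 3 of 19, on X 3 of 12, on 4 the only member, RpS3A, and on 2R 0 of 16, where 11 had negative log2 fold changes. Many ribosomal protein genes carry snoRNA genes in their introns, and 9 of the 25 tested hosts were called lower, against 8 of the 53 others. The median log2 fold changes of hosts and non-hosts were −0.14 and −0.12. Over all genes tested, 5.42% were called lower and 3400 of 6619 had negative log2 fold changes. None of these splits was tested.

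The small subunit gene RpS5b was the 1 ribosomal protein gene called higher in the mutant. RpS5b is known from the ovary and germline, while its paralog RpS5a is used broadly. RpS5b stood at 49.5, 67.3 and 62.2 CPM in mutant libraries 1 to 3, against 3.30, 23.8 and 27.6 CPM in wild-type libraries 1 to 3. Every mutant library lay above every wild-type one. In libraries 2 and 3 the log2 fold change was 1.295 (SE 0.16, 2.45-fold, limma adjusted p = 1.59e-05), and the call held under every alternative tried for these libraries, DESeq2 included (adjusted p = 0.000823). Over all 6 libraries the value was larger, 2.10, but did not pass (SE 0.66, limma adjusted p = 0.214), and it was 1.24 without wild-type library 1.

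RpS5a was not called. It stood at 847, 793 and 757 CPM in the mutant libraries, against 926, 847 and 916 CPM in the wild-type libraries, ranges that overlap narrowly, with a log2 fold change of −0.19 in libraries 2 and 3 (limma adjusted p = 0.0595). In the CTCF pair RpS5b stood at 194 CPM in the knockdown and 223 CPM in the control.

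The summed level of germline and gonad markers was also higher in every mutant library. Of 8 listed, 6 matched, zpg was at 0 in all libraries and 3 of the 6 stayed under 5 CPM throughout. Their summed level was 44.6, 24.4 and 20.7 CPM in mutant libraries, against 3.30, 12.2 and 11.9 CPM in those of the wild type, and 132 CPM in the CTCF knockdown, against 123 CPM in its control. In libraries 2 and 3 bam made up most of that sum, with 18.8 to 21.0 CPM in the 3 mutant and 0.471 to 10.1 CPM in the 3 wild-type libraries. Levels of osk overlapped, with 8.05, 2.65 and 0.648 CPM in mutant libraries 1 to 3, against 1.88, 1.06 and 3.13 CPM in wild-type libraries 1 to 3. The level of tj was 9.90 CPM in mutant library 1 and at most 1.59 CPM in each of the other Beaf libraries. Summed markers of neurons (131 to 293 CPM in mutant, 62.2 to 85.7 CPM in wild-type libraries), muscle (55.0 to 95.9 and 9.89 to 30.7 CPM, mutant and wild type) and epithelia (298 to 681 and 83.9 to 165 CPM, mutant and wild type) were also higher in every mutant library. The muscle sum, over 4 matched genes of 6 listed, was mostly bt. That gene stood at 53.1 to 73.0 CPM in mutant libraries, against 8.95 to 27.5 CPM in wild-type libraries. Levels of up, Act88F, Tm2, nSyb, Syt1, brp, shg and Fas3 overlapped between the genotypes. Those of bt, Appl, cac, crb, ed and sdt did not. Summed fat body markers overlapped, with 359 to 1099 CPM in mutant and 302 to 590 CPM in wild-type libraries. The part of any of these in the RpS5b result was not tested.

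Most other paralogs took minor shares of their families, of which there were 12 with 25 members. Near silence was found for RpL10Aa, RpL22-like, RpL37-2, RpS28a and RpS28-like, which never passed 0.230% of their family's reads, and for RpS19b, known from the germline like RpS5b, which reached at most 1.48%. RpL34a took 20.8% to 24.5% of RpL34 reads and RpS15Ab took 8.07% to 16.0% of RpS15A reads. Near-identical copies can share reads, and how the authors counted such reads is not stated in the labels, which leaves these shares uncertain.

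In the families of RpS14b and RpL7-like the shares of the genotypes did not overlap. RpS14b took 18.3%, 18.4% and 17.9% of RpS14 reads in mutant libraries 1 to 3, against 22.0%, 20.6% and 21.0% in wild-type libraries 1 to 3. RpS14a and RpS14b lie on X and encode the same 40S protein, a component of the platform. The Wilson intervals of single libraries overlapped (16.5% to 20.4% in mutant library 1, against 19.9% to 24.3% in wild-type library 1). RpL7-like took 6.29%, 5.77% and 6.35% of RpL7 reads in the mutant, against 4.84%, 4.84% and 4.34% in the wild type, and the corresponding log2 fold change of RpL7-like in libraries 2 and 3 was 0.26 (limma adjusted p = 0.180). In the annotation used here 98.8% of the exon length of RpL7-like is overlapped by other genes, so its count and share are uncertain.

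RpL7-like, RpL24-like and RpLP0-like meet the naming rule, but their yeast counterparts are ribosome assembly factors and not parts of the finished ribosome. All 3 were far below their namesakes. RpL24-like took 9.24% to 16.4% of RpL24 reads and RpLP0-like 1.498% to 5.63% of RpLP0 reads. In libraries 2 and 3 the log2 fold changes were 0.06 for RpL24-like and 0.31 for RpLP0-like, and neither was called (limma adjusted p = 0.809 and 0.271).

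Listed at 0 were RpS6, the substrate of S6 kinase, RpL41, the smallest ribosomal peptide, and RpS10a. In the annotation used here, which need not be the authors', 16.9% of the exon length of RpS6 is overlapped by other genes, but RpL22, with 34.3%, was counted. RpL41 and RpS10a are not overlapped there. No statement on their transcripts is possible from a value of 0.

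In the CTCF pair all but 2 of the 79 ribosomal protein genes differed by less than 1.5-fold, and both of these belong to the large subunit. There is 1 library of each, so there is no replicate check and no test. Reads not aligned made up 45.1% of the knockdown library and 18.4% of the control library. Their part in the ratios of this pair was not tested. RpL37A was 905 CPM in the knockdown and 564 CPM in the control, a log2 ratio of 0.63. RpL36A was 1897 CPM in the knockdown and 1217 CPM in the control, a log2 ratio of 0.59. In libraries 2 and 3 of the Beaf lines RpL36A had a log2 fold change of 0.21 that was not called (limma adjusted p = 0.121). Among all 7558 genes kept, 3.10% were at least 1.5-fold higher, and 1.64% at least 1.5-fold lower, where 0 of 79 ribosomal protein genes were.

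The remaining values ran down to −0.40. Over all 79 ribosomal protein genes, 55 values were negative and 24 positive. Their median was −0.09, against 0.00 over all 7558 genes kept, of which 3725 had negative values. RpL35 was 3505 CPM in the knockdown and 2462 CPM in the control (log2 ratio 0.46). The log2 ratio was 0.40 for RpS13, 0.39 for RpL29 and 0.38 for RpL21, all structural proteins of their subunits. At the low end RpL34b was 712 CPM in the knockdown and 907 CPM in the control (−0.40), and RpL18 was 664 CPM in the knockdown and 839 CPM in the control (−0.39). Counting error alone gave these ratios an SE of 0.01 to 0.03 on the log2 scale.

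Within the family the CTCF log2 ratio was lower for longer coding regions, with a Spearman rho, given as a description, of −0.32 over 79 genes of the same 2 libraries. The 24 genes with a coding length under 400 bases had a median log2 ratio of −0.01, and the 55 others −0.16. On arm 3R 17 of 20 genes had negative values (median −0.20), and on 2L 10 of 17 had positive ones (median 0.13). Of the 17 genes that fell in mutant libraries 2 and 3, 13 had negative values in the CTCF pair. So did 55 of all 79 ribosomal protein genes and 3725 of all 7558 genes kept. RpL21 and RpS29, among the 17, had positive values. The rho between the log2 values of the 2 comparisons was 0.11, as a description over genes that share no library, against 0.67 between the ratios of the second and the third Beaf table.

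In libraries 2 and 3 further genes of the ribosome and of translation were called lower, against the same 5.42% of all genes called lower and 9.34% called higher. The proteins Sta (RpSA) and Rack1 are part of the 40S subunit but do not carry an RpS symbol. Levels of sta were 1146 and 1065 CPM in libraries 2 and 3 of the mutant, against 1335 and 1365 CPM in libraries 2 and 3 of the wild type (log2 fold change −0.29, limma adjusted p = 0.00369). Mutant library 1, at 2375 CPM, lay above all wild-type libraries, against 1410 CPM in wild-type library 1. Rack1 had 920 and 872 CPM in the same mutant libraries, against 1045 and 1030 CPM in the wild-type ones (−0.22, limma adjusted p = 0.0272). They belong to a list of 12 tested ribosome-associated genes, of which 4 fell and 0 rose, the others being Srp54k, a subunit of the signal recognition particle (−0.37), and bic, of the nascent polypeptide-associated complex (−0.24). In library 1 bic was higher in the mutant, with 592 CPM against 510 CPM in the wild type. The median of that list was −0.24.

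Of 31 tested translation factors 7 fell and 0 rose (median −0.13), where 5.42% of all genes were called lower and 9.34% higher, led by the initiation factor genes eIF1 (−0.46), eIF3d1 (−0.46) and eIF4E1 (−0.44). The level of eIF1 was 27.8, 163 and 172 CPM in the mutant libraries, against 217, 227 and 234 CPM in the wild-type libraries, with no overlap. Of 31 ribosome biogenesis genes 2 fell, a share near the 5.42% of all genes, with a median of −0.13, and wcd, a nucleolar protein gene, had a log2 fold change of −0.74. Of 16 genes of RNA polymerases I and III 0 were called by limma-trend, edgeR, DESeq2 or limma-voom (median −0.15), and at an unadjusted p below 0.05 limma-trend gave 2 higher and 1 lower. DESeq2 called 0 genes lower in each of these lists, and at an unadjusted p below 0.05 it gave 5 lower among the translation factors, 1 among the biogenesis genes and 1 among the ribosome-associated genes.

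Among 21 tested promoter and growth regulators of the family 2 rose and 3 fell, where 9.34% of all genes were called higher and 5.42% lower, with a median log2 fold change of 0.04. BEAF-32, 1 of the 2 that rose, had a log2 fold change of 1.64. It is the gene the Beaf lines are named for, and its vector and endogenous reads were not separated. Dref, a factor of the DRE promoter element, stood at 26.0, 63.1 and 87.4 CPM in the mutant libraries, against 97.5, 96.8 and 101 CPM in the wild-type libraries (−0.41 in libraries 2 and 3, limma adjusted p = 0.0444), and AMPKalpha, the energy-sensing kinase, fell by 0.50. Xrp1, the transcription factor of the Minute response, stood at 525, 497 and 471 CPM in the mutant libraries, against 319, 408 and 430 CPM in the wild-type libraries, without overlap, with a log2 fold change of 0.20 that was not called (limma adjusted p = 0.0528). In the CTCF pair 1 of 32 translation factor genes and 1 of 19 polymerase genes were at least 1.5-fold higher, where 3.10% of all genes were. Of these 5 lists 0 genes were at least 1.5-fold lower, where 1.64% of all genes were.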

How the data were processed

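Per the submitters' processing notes, the authors used CASAVA 1.8, BWA and HTSeq. No genome build, annotation or strand setting is given in the sources used here, which leaves overlapping genes uncertain. Per the labels' protocols, TruSeq libraries were prepared by 2 versions of the kit, the second without poly-A selection, with no word on which libraries used which. The deposited mutant and knockdown columns hold whole-number read counts per gene. The deposited wild-type and control columns hold a signal. In wild-type libraries 1 and 2 and the control it appears to be read counts times a constant, rounded, as read from the values. Division by 1.234, 1.237 and 1.297 gave whole reads for 100%, 100% and 99.99% of values in wild-type libraries 1 and 2 and the control, where chance gives 81.0%, 80.8% and 77.1%. For library 3 of the wild type no such constant is given, and it entered as deposited.

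The last 5 rows of each table (unassigned reads) were left out. CPM was computed over all gene rows, of which 94.6% matched a symbol. For tests, genes were filtered with filterByExpr, and log2 CPM was computed from TMM-scaled values (prior count 2). Fold changes therefore differ slightly from ratios of the CPM printed. Because rescaled values are not counts, limma-trend was the test (two-sided, Benjamini-Hochberg over all genes tested, threshold 0.05). On recovered reads edgeR called 1064 genes in libraries 2 and 3, limma-voom 978 and DESeq2 180, against 977 with limma-trend. In the CTCF pair a gene counted as changed at 1.5-fold. Scripts were tested on simulated data. Values were prepared in Python 3.11.15 with numpy 2.4.6, pandas 2.3.3 and scipy 1.17.1, drawn with matplotlib 3.10.9 and fitted in R 4.3.3 with edgeR 4.0.16, limma 3.58.1 and DESeq2 1.42.0. Lengths, arms and snoRNAs are from the BDGP6.54 annotation, release 115. Promoter and protein sequences were not used here. Values of some genes are not reported here, though counts include them.

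Members, gene lists and the restriction to libraries 2 and 3 of each genotype were chosen with earlier results of these data known. Named by rule were up to 12 genes per direction called in libraries 2 and 3, the 5 highest and lowest by level, the 8 with the largest CTCF ratio among those with at least 20 CPM, all paralogs, those at 0, and the extremes over 6 libraries. From the other lists up to 3 called genes each were named, with Xrp1, Rack1, sta, BEAF-32 and CTCF. The other genes that fell, RpL39, RpL15, RpL12, RpL38, RpL35 in the levels and the stalk genes were named after their values were seen.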

Additional observations from a re-analysis of the deposited data

How the results depend on the processing

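Among the tested values of single genes that were followed, none reversed its direction under an alternative. Followed were the genes called in libraries 2 and 3, in those libraries, and RpS5b, RpS29 and RpL28 over all 6 libraries. The direction of other tested genes was not followed. In libraries 2 and 3 of each genotype the count of genes called lower was 17, and 0 with DESeq2, whose smallest adjusted p among falling members was 0.0601. It ranged from 9 to 17 when one library was left out, where the lone library of its genotype is assumed to vary like the other group, and was 14 with library size as the only scaling, 16 with edgeR and 24 with limma-voom. The count called higher was 1, and 2 with only IDs that match a symbol, where RpL36A joined RpS5b. It ranged from 1 to 2 with one library left out. Over all 6 libraries the count called ranged from 0 to 7 with one library left out, the 7 being without mutant library 1, and RpL28 then passed the test (−0.47, limma adjusted p = 0.0366). The median over the family ranged from −0.15 to 0.25 over all 6 libraries and from −0.15 to −0.10 in libraries 2 and 3 with one library left out. The family's median over all 6 libraries was negative without mutant library 1 and, at −0.036, with no filter on low values, and it was positive in the other settings tried. Of the values of single genes under an alternative, 317 kept their direction and call, 43 lost the call, 1 gained it and 8, all in the CTCF pair, moved by more than counting error. The causes of these moves were not tested.

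Over 6564 genes, deviations of same-numbered libraries from their genotype mean had Pearson r of −0.16, −0.12 and −0.08 (numbers 1, 2 and 3). Library 1 stood apart in both genotypes and weighs on those means, so this cannot decide whether the numbers pair the libraries. A fit with the table of origin as a replicate block called 2 members higher and 20 lower in libraries 2 and 3. It called 0 over all 6 libraries. Of all genes it called 11.2% higher and 7.40% lower in libraries 2 and 3, against 9.34% and 5.42% without the block.

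In the CTCF pair the median moved to −0.036 with library size as the only scaling, and 1 member was at least 1.5-fold lower without a filter on low values. Counted over IDs with a symbol only, the family's share was 11.8%, 8.10% and 7.87% in mutant libraries 1 to 3, 9.36%, 8.79% and 9.05% in wild-type libraries 1 to 3, 14.6% in the knockdown and 14.6% in the control. At gene totals of 1544063 to 2122627 in the Beaf lines, members under 5 CPM cannot be compared.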
